A study of Homo sapiens with 34 samples.

Results

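DNA synthesis and replication fork genes were followed through etoposide treatment in 6 human blood cancer cell lines. The set holds 39 genes of the 23368 gene symbols in the deposited count files, taken by symbol for their roles at the fork. Earlier results of these data were known when the set was chosen. All 39 symbols were present, and all 39 passed the filter on low counts in every line, with at least 173 reads for each gene in each library. The set was divided into 10 roles: the clamp and its loaders (7 genes), polymerase alpha and primase (4), polymerases delta and epsilon (5), single-strand binding (3), helicase cofactors (5), origin recognition and licensing control (3), nucleotide supply (4), Okazaki fragment processing (2), histone supply and chromatin (4), and fork protection and anchoring (2).

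Replication forks are built at origins bound by the origin recognition complex, where CDC45 and the GINS complex join the MCM helicase and unwind DNA. Polymerase alpha with primase then lays primers, RPA coats single strands, and polymerases epsilon and delta extend DNA while held by the PCNA clamp that RFC loads. Many of these genes are transcribed at the G1/S transition under E2F factors, and CDKN1A, a p53 target, restrains that transition.

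Etoposide, a topoisomerase II poison used against leukaemias and lymphomas, holds the enzyme in its cleaved complex with DNA, which causes double-strand breaks. Total RNA was sequenced after 4 hours in 10 µM etoposide (17 libraries) or in untreated control cells (17 libraries). The lines were NALM6 and 697, which are pre-B acute lymphoblastic leukaemia lines, the mature B line RAMOS, the T line JURKAT, and the myeloid lines THP1 and U937. Each group had 3 libraries, except etoposide-treated 697 and control U937 cells, which had 2.

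The promoters of 4 genes that hold E2F-type letters are shown. PCNA and LIG1 were higher after etoposide in every line. CDCA7 was among the 3 genes that fell furthest in both pre-B lines, and GINS3 was among them in 697 only (log2 fold change -1.39, against -0.42 in NALM6). SLBP, which fell furthest in NALM6, PRIM1, which fell furthest in 697, and PRIM2 had no such letters and are not shown. Another promoter of PCNA, at chr20:5119909-5120208, had none either and is not shown. The sequences are RefSeq promoters of build GRCh38.p14, covering 250 bases before to 50 bases after the gene start, 5′ to 3′ on the gene's strand. Capitals mark the E2F-type letters found in each. PCNA lies at chr20:5126573-5126872 on the minus strand and LIG1 at chr19:48170295-48170594 on the minus strand. GINS3 lies at chr16:58392221-58392520 on the plus strand and CDCA7 at chr2:173354622-173354921 on the plus strand.
PCNA: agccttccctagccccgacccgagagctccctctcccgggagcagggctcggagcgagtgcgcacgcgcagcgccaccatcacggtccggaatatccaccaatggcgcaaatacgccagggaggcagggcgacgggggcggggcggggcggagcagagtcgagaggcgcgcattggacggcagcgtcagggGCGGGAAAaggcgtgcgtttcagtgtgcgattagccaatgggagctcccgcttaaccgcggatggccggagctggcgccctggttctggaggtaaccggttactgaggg
LIG1: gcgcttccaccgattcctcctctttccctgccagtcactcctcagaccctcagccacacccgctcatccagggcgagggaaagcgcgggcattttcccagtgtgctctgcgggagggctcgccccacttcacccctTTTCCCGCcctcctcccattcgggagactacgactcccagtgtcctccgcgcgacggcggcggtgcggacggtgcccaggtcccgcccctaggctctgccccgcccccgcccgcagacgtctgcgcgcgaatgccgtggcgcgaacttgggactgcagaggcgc
GINS3: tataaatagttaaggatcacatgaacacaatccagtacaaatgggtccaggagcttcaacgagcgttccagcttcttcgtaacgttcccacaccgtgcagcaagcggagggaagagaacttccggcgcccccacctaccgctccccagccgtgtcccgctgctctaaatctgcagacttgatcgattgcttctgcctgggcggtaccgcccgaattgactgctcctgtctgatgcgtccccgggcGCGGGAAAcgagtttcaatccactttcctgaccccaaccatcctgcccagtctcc
CDCA7: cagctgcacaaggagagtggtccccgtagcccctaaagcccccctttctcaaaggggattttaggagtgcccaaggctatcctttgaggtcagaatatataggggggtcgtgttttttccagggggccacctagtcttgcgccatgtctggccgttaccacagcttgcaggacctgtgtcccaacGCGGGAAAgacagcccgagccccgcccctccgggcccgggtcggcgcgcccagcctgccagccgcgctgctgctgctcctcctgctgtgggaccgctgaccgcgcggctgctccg

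Among the 39 genes, 34 were matched to at least 1 promoter in the RefSeq table, and a gene was counted when any of its promoters held the letters. E2F-type letters (TTTCCCGC, TTTGGCGC, TTTCGCGC or TTTGCCGC, on either strand) were present in 14 of the 34 (41.2%), against 1090 of all 27305 genes with a promoter of the same length in the table (3.99%). Counted by single promoters, 14 of 43 held them (32.6%), against 3.31% of all 35116 promoters. The CCAAT letters were present in 19 of the 34 (55.9%), against 39.7% of all these genes. The CHR-type letters TTTGAA, a mark of late cell-cycle genes, were present in 1 (2.94%), against 18.2% of all. Genes with and without E2F-type letters had medians on the same side of 0: in 697 cells the median log2 fold change was -1.04 for the 14 genes with them and -0.87 for the 20 without, and in RAMOS it was 0.35 with them and 0.62 without. The 3 kinds were searched separately on both strands, and their matches may overlap at the ends. They are a description of sequence and were not tested as binding sites.

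Library totals ran between 8.18 and 37.1 M gene counts. Markers of each lineage fitted the labels: summed over 8 genes in control libraries, pre-B markers reached 5226 to 5315 CPM (counts scaled to a library total of 1 M) in NALM6 and 3830 to 3864 in 697, B cell markers 4100 to 4140 in RAMOS, T cell markers 2431 to 2554 in JURKAT, and myeloid markers 2865 to 3108 in THP1 and 4412 to 4424 in U937. In NALM6 the 8 pre-B markers summed to 2074 to 2115 CPM after etoposide, against the 5226 to 5315 of controls, and in 697 to 1217 to 1243 CPM, against 3830 to 3864. Their part in the results below was not tested, and in bulk RNA fewer cells of a type and less RNA per cell cannot be told apart. The file names give the etoposide libraries of NALM6 and 697 one SLX number and their controls another. This number is read here as a sequencing pool, which the file names do not state. So read, pool and treatment cannot be told apart in these lines. Within each of the other lines all libraries shared 1 such number. Nothing in the labels says that replicates came from separate cultures, so the p-values rest on a spread between samples that may be only technical.

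The share of each library taken by the 39 genes moved in opposite directions. In RAMOS they took 1.01% to 1.04% of all counts after etoposide, against 0.683% to 0.692% in controls. JURKAT gave 0.740% to 0.754% after etoposide and 0.576% to 0.588% in controls, and U937 gave 0.761% to 0.785% after etoposide and 0.587% to 0.589% in controls. THP1 held the lowest control share, with 0.513% to 0.520% after etoposide and 0.401% to 0.405% in controls. In 697 the share was lower after etoposide, at 0.492% to 0.498%, against 0.638% to 0.653% in controls. In NALM6 it was 0.601% to 0.609% after etoposide and 0.610% to 0.625% in controls, a gap smaller than the spread among the controls. Groups did not overlap in any of the 6 lines.

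**Figure D1:**
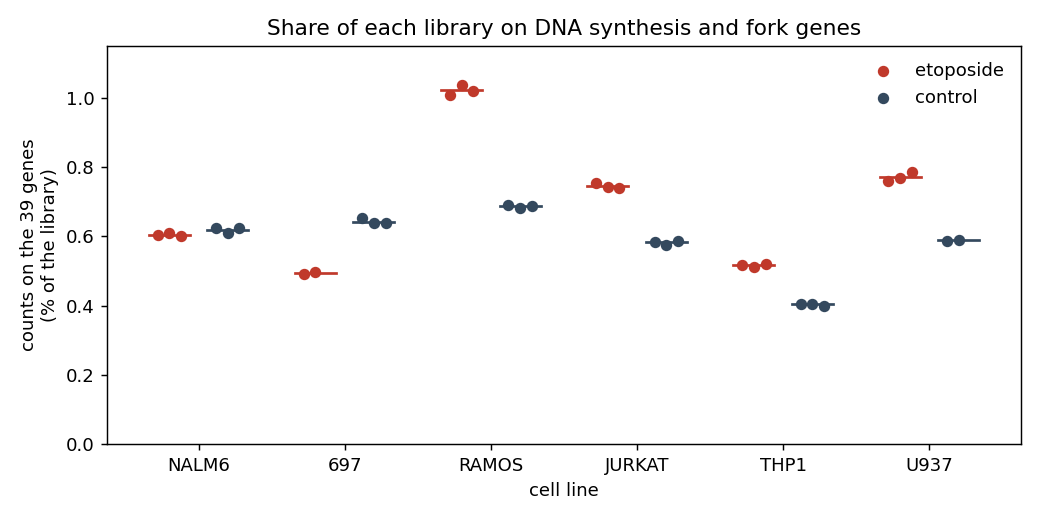
Percent of each library's gene counts that fell on the 39 genes (vertical axis) in the 6 lines (horizontal axis), with 1 point per library, etoposide left of control. Etoposide libraries sit above controls in RAMOS, JURKAT, THP1 and U937, with 1.01% to 1.04% in RAMOS, and below them in 697, with 0.492% to 0.498%.

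Gene by gene, most of the set fell in the pre-B lines and rose in the other 4 (edgeR quasi-likelihood test, Benjamini-Hochberg adjustment over all genes tested in a line, called at an adjusted p under 0.05). In NALM6, 9 genes were higher, 28 lower and 2 did not pass, where 41.3% of all genes tested were higher and 40.3% lower. In 697, 4 were higher, 34 lower and 1 did not pass, against a background of 39.4% higher and 36.9% lower. RAMOS gave 29 higher, 8 lower and 2 not passing, with 34.2% of all genes higher and 35.5% lower. JURKAT had the lowest background, 6.71% higher and 6.27% lower, and in it 27 of the 39 were higher, 12 did not pass and 0 were lower. That count of 0 held at an unadjusted p under 0.05 in edgeR and in DESeq2. THP1 gave 31 higher, 1 lower and 7 not passing, against 14% and 17% of all genes. U937 gave 29 higher, 2 lower and 8 not passing, against 22.1% of all genes in each direction. Without control replicate 1, THP1 had 2 lower genes, and U937 had 1 without control replicate 1, control replicate 2 or etoposide replicate 2.

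Treated and control libraries were apart for most of the set in all lines. Every etoposide library lay above every control for 8 genes and below for 28 in NALM6 (41.5% and 40.2% of all genes), and for 4 and 34 in 697 (43.1% and 40.4%). In RAMOS 30 genes lay above and 8 below (35% and 36.1% of all genes), and in U937 31 above and 5 below (31.7% and 31.2%). JURKAT had 27 above (15% of all genes, with 15.3% below), and THP1 31 above and 1 below (19.9% and 21.8%).

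The changes were modest in size outside the pre-B lines. The median log2 fold change of the 39 genes was -0.51 in NALM6 and -0.89 in 697, then 0.44 in RAMOS, 0.34 in JURKAT, 0.28 in THP1 and 0.33 in U937. The median over all genes tested lay within 0.05 of 0, a value that depends on the scaling. Under upper-quartile scaling it was 0.18 in NALM6 and 0.21 in 697, where the 39 genes had medians of -0.35 and -0.73. A change of at least 2-fold was met by 2 higher and 7 lower genes in NALM6 and 18 lower genes in 697. Of all genes tested, 2583 of 12589 were that much higher in NALM6 and 1243 lower. In 697, 3076 of 13439 were higher and 1409 lower. Outside pre-B cells, 4 genes were at least 2-fold higher in RAMOS and 1 in JURKAT, and no gene of the set reached that size in THP1 or U937. Over all genes, RAMOS had 834 higher and 1061 lower of 12240, and JURKAT 37 and 62 of 13914. THP1 had 123 and 60 of 13983, and U937 250 and 133 of 13235.

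Across lines, 21 genes were higher in all 4 of RAMOS, JURKAT, THP1 and U937. Of these 21, 15 were lower in both pre-B lines: RFC2, RFC4, RFC5, POLE2, GINS2, GINS3, ORC1, GMNN, RRM1, RRM2, FEN1, CHAF1A, SLBP, TIPIN and WDHD1. CDC45 and ORC6 were lower in 697 and higher in NALM6, and CHAF1B was lower in 697 and did not pass in NALM6. PCNA, GINS4 and LIG1 were higher in all 6 lines. PRIM2 was lower in 5 lines. Single calls of RFC4, GMNN, RRM1, CDC45, LIG1 and PRIM2 were lost when a library was left out, and CHAF1A in NALM6 changed sign with the scaling, as given below. In the authors' deposited NALM6 results, RFC2, RFC4, RRM1, SLBP, TIPIN and WDHD1 were called lower. The rest of the 15 were not called there, and GINS3, ORC1 and GMNN had the opposite sign. The 15 genes are counted by their calls in each line's own fit, and the differences between lines are tested further below. The share of all genes with these patterns over lines was not counted, so how unusual these counts are cannot be read from them.

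**Figure D2:**
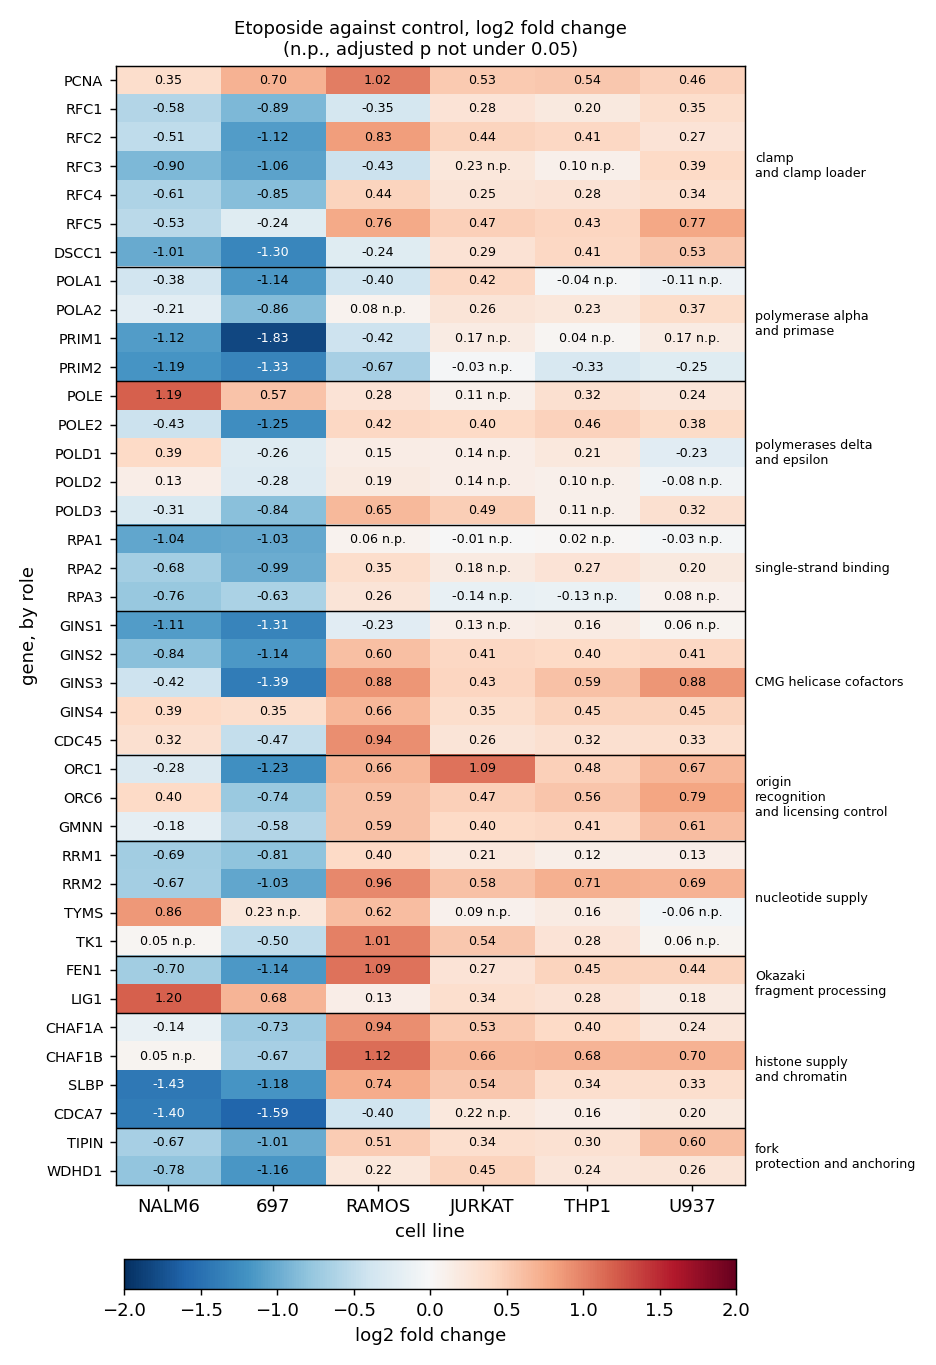
Log2 fold change of etoposide against control for each of the 39 genes (rows, by role) in the 6 lines (columns), with n.p. where the adjusted p was not under 0.05. Most rows are negative in NALM6 (median -0.51) and 697 (median -0.89) and positive in the other 4 lines (medians 0.28 to 0.44), and the rows of PCNA, GINS4 and LIG1 are positive throughout.

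PCNA, the sliding clamp, rose in every line. In RAMOS its level was 1096, 1231 and 1155 CPM after etoposide, against 575, 566 and 574 CPM in controls, a log2 fold change of 1.02 (SE 0.041, adjusted p = 7.86e-28). In 697 it was 760 and 884 CPM after etoposide, against 552, 491 and 471 CPM in controls, a log2 fold change of 0.70 (SE 0.078, adjusted p = 8.62e-06). Every treated library stood above every control in both lines. NALM6 had 688, 721 and 691 CPM after etoposide and 566, 538 and 544 CPM in controls (log2 fold change 0.35, SE 0.042, adjusted p = 3.83e-10). The 3 remaining lines gave log2 fold changes of 0.53 in JURKAT, 0.54 in THP1 and 0.46 in U937, again without overlap between groups. THP1 cells had far less of it than the others, with 159, 149 and 171 CPM after etoposide and 117, 118 and 94.5 CPM in controls.

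The subunits of RFC, the pentamer that opens PCNA and sets it on DNA, did not follow their clamp in pre-B cells. All 5 fell in NALM6 (log2 fold changes -0.51 to -0.90) and in 697 (-0.24 to -1.12), and so did DSCC1, a subunit of the alternative clamp loader used in sister chromatid cohesion. DSCC1 stood at 28.2 and 22.3 CPM in treated 697 cells, against 64.5, 65.6 and 58.7 CPM in controls, a log2 fold change of -1.30 (SE 0.097, adjusted p = 5.91e-09). RAMOS split the loader: RFC2, RFC4 and RFC5 rose by 0.83, 0.44 and 0.76 on the log2 scale, while RFC1, RFC3 and DSCC1 fell by 0.35, 0.43 and 0.24. RFC3 in RAMOS was at 93.2, 106 and 95.4 CPM after etoposide, against 137, 126 and 133 CPM in controls, so that its groups did not overlap (adjusted p = 4.34e-11). In U937 all 7 genes of this role rose, and RFC5, at 84.8, 84.9 and 85.7 CPM after etoposide and 48.2 and 51.8 CPM in controls, rose most (log2 fold change 0.77, SE 0.064, adjusted p = 2.98e-11). In JURKAT and THP1 6 of the 7 rose, and RFC3 had values of 0.23 and 0.10 that did not pass. The JURKAT call of DSCC1 was lost without control replicate 3 (adjusted p = 0.074), etoposide replicate 1 (0.076) or etoposide replicate 3 (0.053), and that of RFC4 without etoposide replicate 1 (0.053).

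Polymerase alpha and primase start each new strand with a short primer. Of their 4 genes, 2 were called higher in JURKAT and 1 in THP1 and in U937, while 3 fell in RAMOS. Over all genes tested, 6.71% were higher in JURKAT, 14% in THP1 and 22.1% in U937, and 35.5% were lower in RAMOS. All 4 subunits fell in both pre-B lines. PRIM1, the catalytic primase subunit, had 17.8 and 18 CPM in treated 697 cells, against 64.9, 59.5 and 65.7 CPM in controls, a log2 fold change of -1.83 (SE 0.084, adjusted p = 3.95e-12) and the lowest of the 39 genes in any line. PRIM2, the large primase subunit, had 15.7, 15.9 and 12.5 CPM in treated NALM6 cells, against 35.9, 32.7 and 32.8 CPM in controls (log2 fold change -1.19, SE 0.097, adjusted p = 2.78e-15). Neither gene overlapped between groups in these lines.

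PRIM2 also fell in RAMOS, to 18, 19.8 and 21.5 CPM after etoposide, against 27.7, 31.3 and 32.9 CPM in controls (log2 fold change -0.67, SE 0.082, adjusted p = 5.11e-10). It was the only gene of the set called lower in THP1 (log2 fold change -0.33, adjusted p = 0.000464). In U937 it had 25.9, 23.3 and 26.8 CPM after etoposide, against 29.6 and 30.5 CPM in controls (log2 fold change -0.25, adjusted p = 0.0205). The U937 call was lost without control replicate 1 (adjusted p = 0.074), control replicate 2 (0.144) or etoposide replicate 2 (0.134). JURKAT gave -0.03 for PRIM2 with overlapping groups. POLA1, the catalytic subunit, fell in 697 to 63.3 and 67.4 CPM, against 139, 149 and 144 CPM in controls (log2 fold change -1.14, SE 0.065, adjusted p = 6.18e-11), and fell in RAMOS by 0.40 on the log2 scale. JURKAT went the other way for POLA1, with 84, 85.8 and 81.7 CPM after etoposide and 66.2, 54.1 and 67.8 CPM in controls (log2 fold change 0.42, SE 0.079, adjusted p = 0.000973).

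Among the replicative polymerases, POLE, the catalytic subunit of the leading-strand polymerase, rose in 5 lines and most in NALM6. There it reached 701, 655 and 682 CPM after etoposide, against 309, 287 and 295 CPM in controls, a 2.29-fold increase (log2 fold change 1.19, SE 0.045, adjusted p = 1.22e-27). In 697 it had 417 and 421 CPM after etoposide and 291, 273 and 280 CPM in controls (log2 fold change 0.57, SE 0.051, adjusted p = 2.31e-08). Its partner POLE2 moved against it in pre-B cells, with log2 fold changes of -0.43 in NALM6 and -1.25 in 697, and rose by 0.38 to 0.46 in the other 4 lines. POLD1, the catalytic subunit of polymerase delta, gave no common direction: 0.39 in NALM6, -0.26 in 697, 0.15 in RAMOS, 0.14 and not passing in JURKAT, 0.21 in THP1 and -0.23 in U937. The RAMOS value lost its call without control replicate 3 (adjusted p = 0.08). The accessory subunit POLD3 fell in NALM6 (-0.31) and 697 (-0.84) and rose in RAMOS (0.65), JURKAT (0.49) and U937 (0.32).

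RPA, the trimer that coats single-stranded DNA, fell in pre-B cells and changed little elsewhere. RPA1, its large subunit, had 175, 162 and 163 CPM in treated NALM6 cells, against 334, 345 and 353 CPM in controls (log2 fold change -1.04, SE 0.047, adjusted p = 1.91e-24), and it fell by 1.03 in 697. In the other 4 lines RPA1 lay between -0.03 and 0.06 and did not pass in any. RPA2 rose in RAMOS (0.35), THP1 (0.27) and U937 (0.20), and RPA3 rose in RAMOS (0.26).

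CDC45 and the GINS complex turn the loaded MCM ring into an active helicase, and their genes did not move as a unit in pre-B cells. GINS1 and GINS2 fell in both lines, and GINS3 fell in 697 to 32.7 and 40.9 CPM, against 93.5, 92.5 and 102 CPM in controls (log2 fold change -1.39, SE 0.091, adjusted p = 1.93e-09). GINS4 rose instead, to 113, 122 and 120 CPM in treated NALM6 cells against 89.5, 87.6 and 93.5 CPM in controls (log2 fold change 0.39, SE 0.056, adjusted p = 2.34e-08), and by 0.35 in 697. CDC45 stood at 158, 152 and 151 CPM in treated NALM6 cells and 129, 118 and 124 CPM in controls (log2 fold change 0.32, SE 0.052, adjusted p = 3.05e-07). In 697 it was lower, at 97.4 and 92.9 CPM after etoposide and 131, 132 and 132 CPM in controls (log2 fold change -0.47, SE 0.059, adjusted p = 1.72e-06). Groups did not overlap for any of these values.

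Outside pre-B cells 4 of the 5 helicase cofactors rose in RAMOS, JURKAT and U937 and 5 of 5 in THP1. GINS3 had the largest increase of the set in U937, with 67.6, 73.9 and 71.4 CPM after etoposide and 37.4 and 39.8 CPM in controls (log2 fold change 0.88, SE 0.070, adjusted p = 1.23e-11). In THP1 it reached 50.7, 53.9 and 51.4 CPM, against 35.6, 35 and 33.1 CPM in controls (log2 fold change 0.59, SE 0.066, adjusted p = 2.85e-09). CDC45 in RAMOS had 211, 225 and 215 CPM after etoposide and 111, 113 and 115 CPM in controls (log2 fold change 0.94, SE 0.042, adjusted p = 1.69e-25). GINS1 was the exception, with -0.23 in RAMOS (adjusted p = 0.000281) and values of 0.13 in JURKAT and 0.06 in U937 that did not pass. Its THP1 increase (0.16, adjusted p = 0.0379) was lost without control replicate 3 or any 1 of the etoposide replicates (adjusted p between 0.066 and 0.19). CDC45 in JURKAT (log2 fold change 0.26, adjusted p = 0.0177) lost its call without control replicate 1 (0.1), etoposide replicate 1 (0.061) or etoposide replicate 2 (0.067).

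ORC1 and ORC6, subunits of the complex that marks origins, and GMNN, which blocks relicensing by binding CDT1, rose in all 4 lines outside pre-B. ORC1 in JURKAT gave the only 2-fold change of the set in that line, with 119, 106 and 118 CPM after etoposide and 50.8, 52.5 and 57.6 CPM in controls (log2 fold change 1.09, SE 0.072, adjusted p = 8.47e-10). In 697 ORC1 ran the other way, with 52.4 and 63.2 CPM after etoposide and 133, 134 and 139 CPM in controls (log2 fold change -1.23, SE 0.077, adjusted p = 3.05e-10). NALM6 showed a small decrease, to 101, 98 and 94.1 CPM, against 112, 123 and 121 CPM in controls (log2 fold change -0.28, SE 0.056, adjusted p = 1.32e-05). ORC6 rose in NALM6 by 0.40 and fell in 697 by 0.74, and in U937 it reached 85, 85.2 and 83.1 CPM, against 47.6 and 49.9 CPM in controls (log2 fold change 0.79, SE 0.063, adjusted p = 1.47e-11). GMNN rose most in U937, to 88.7, 92.4 and 93.1 CPM, against 59.4 and 60.4 CPM in controls (log2 fold change 0.61, SE 0.061, adjusted p = 1.38e-09). In NALM6 the GMNN decrease (log2 fold change -0.18, adjusted p = 0.00582) was lost without etoposide replicate 3 (adjusted p = 0.052).

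Within nucleotide supply, RRM2, the regulated subunit of ribonucleotide reductase, showed the clearest opposition. After etoposide it had 297, 318 and 307 CPM in NALM6, against 477, 483 and 511 CPM in controls (log2 fold change -0.67, SE 0.045, adjusted p = 3.47e-18), and 193 and 202 CPM in 697, against 407, 417 and 388 CPM in controls (log2 fold change -1.03, SE 0.055, adjusted p = 3.03e-11). In RAMOS it had 1558, 1499 and 1569 CPM after etoposide and 786, 774 and 823 CPM in controls (log2 fold change 0.96, SE 0.039, adjusted p = 3.14e-27). JURKAT gave 1112, 1057 and 1018 CPM after etoposide and 733, 677 and 724 CPM in controls (log2 fold change 0.58, SE 0.052, adjusted p = 9.66e-08). Treated and control libraries were apart in all of these lines, on opposite sides.

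THP1 and U937 gave RRM2 increases of 0.71 and 0.69 on the log2 scale, the largest of the set in THP1, where levels were 319, 303 and 315 CPM after etoposide and 192, 191 and 190 CPM in controls (SE 0.040, adjusted p = 2.04e-17). RRM1, the large subunit, fell by 0.69 in NALM6 and 0.81 in 697. Its increases in THP1 (0.12, adjusted p = 0.0278) and U937 (0.13, adjusted p = 0.026) were small: the first was lost without control replicate 2 (0.096), control replicate 3 (0.058), etoposide replicate 1 (0.13) or etoposide replicate 3 (0.178), and the second without control replicate 1 (0.381) or etoposide replicate 2 (0.107).

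TYMS, which makes thymidylate from deoxyuridylate, rose in NALM6 to 268, 263 and 272 CPM, against 139, 147 and 155 CPM in controls (log2 fold change 0.86, SE 0.049, adjusted p = 1.02e-20). In 697 it had 211 and 203 CPM after etoposide and 205, 169 and 156 CPM in controls, with overlapping groups and no call (log2 fold change 0.23, adjusted p = 0.0813), though without control replicate 1 it was called at a log2 fold change of 0.36. TYMS rose in RAMOS (0.62) and THP1 (0.16), and its values of 0.09 in JURKAT and -0.06 in U937 did not pass. The THP1 call was lost without etoposide replicate 1 (adjusted p = 0.059) or etoposide replicate 2 (0.073). TK1, the salvage thymidine kinase, rose 2.02-fold in RAMOS, to 253, 281 and 247 CPM against 125, 135 and 125 CPM in controls (log2 fold change 1.01, SE 0.045, adjusted p = 8.9e-26). It fell in 697 to 113 and 110 CPM, against 153, 155 and 165 CPM in controls (log2 fold change -0.50, SE 0.060, adjusted p = 8.57e-07). It also rose in JURKAT (0.54) and THP1 (0.28). In NALM6 its log2 fold change was 0.05 and in U937 0.06, neither passing. A difference between TYMS or TK1 and the reductase genes was not tested.

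FEN1, the nuclease that trims Okazaki fragment flaps, and LIG1, the ligase that seals them, went apart in pre-B cells. LIG1 had the highest log2 fold change of the set in NALM6, with 306, 283 and 301 CPM after etoposide and 138, 129 and 120 CPM in controls (1.20, SE 0.051, adjusted p = 1.79e-25). In 697 it had 288 and 302 CPM after etoposide and 181, 179 and 192 CPM in controls (log2 fold change 0.68, SE 0.054, adjusted p = 4.99e-09). FEN1 was lower by 0.70 in NALM6, and in 697 it stood at 155 and 158 CPM after etoposide and 348, 340 and 347 CPM in controls (log2 fold change -1.14, SE 0.053, adjusted p = 3.93e-12). Treated and control libraries of both genes were apart in both pre-B lines.

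RAMOS, THP1 and U937 had a larger increase of FEN1 than of LIG1, and JURKAT a smaller one. A difference between FEN1 and LIG1 was not tested in any line. In RAMOS FEN1 reached 690, 758 and 709 CPM after etoposide, against 332, 345 and 337 CPM in controls (log2 fold change 1.09, SE 0.040, adjusted p = 2.98e-29). LIG1 rose there by only 0.13 (SE 0.039, adjusted p = 0.00377). FEN1 gained 0.27 in JURKAT, 0.45 in THP1 and 0.44 in U937. LIG1 gained 0.34 in JURKAT and 0.28 in THP1. Its increase of 0.18 in U937 (adjusted p = 0.00356) was lost without control replicate 2 (adjusted p = 0.121).

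SLBP, which binds the stem-loop of replication-dependent histone mRNAs, fell furthest of the set in NALM6. It had 107, 108 and 111 CPM after etoposide and 298, 292 and 290 CPM in controls (log2 fold change -1.43, SE 0.049, adjusted p = 2.56e-29). In 697 it had 51.9 and 43.7 CPM after etoposide and 107, 108 and 112 CPM in controls (log2 fold change -1.18, SE 0.077, adjusted p = 3.88e-10), and in RAMOS 449, 456 and 449 CPM after etoposide and 272, 269 and 272 CPM in controls (log2 fold change 0.74, SE 0.038, adjusted p = 4.77e-23). Smaller increases were seen in JURKAT (0.54), THP1 (0.34) and U937 (0.33). CHAF1A and CHAF1B, subunits of the CAF-1 chaperone that places histones behind the fork, rose in all 4 lines outside pre-B. CHAF1B in RAMOS had the largest increase of the set there, with 105, 105 and 107 CPM after etoposide and 46.1, 48.6 and 50.3 CPM in controls (log2 fold change 1.12, SE 0.052, adjusted p = 8.63e-25). In 697 both subunits fell, by 0.73 and 0.67. In NALM6 CHAF1A was lower by 0.14 (adjusted p = 0.00555), a direction that turned to 0.02 with upper-quartile scaling and to 0.0024 with library totals, and CHAF1B did not pass.

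CDCA7, a partner of the HELLS chromatin remodeller, fell in both pre-B lines and in RAMOS. NALM6 had 129, 143 and 131 CPM after etoposide and 357, 348 and 360 CPM in controls (log2 fold change -1.40, SE 0.049, adjusted p = 5.54e-29), and 697 had 135 and 103 CPM after etoposide and 357, 354 and 366 CPM in controls (log2 fold change -1.59, SE 0.11, adjusted p = 1.44e-06). RAMOS gave 210, 224 and 202 CPM after etoposide and 289, 274 and 277 CPM in controls (log2 fold change -0.40, SE 0.041, adjusted p = 3.57e-12). Its increases in THP1 (0.16, adjusted p = 0.00947) and U937 (0.20, adjusted p = 0.00344) were lost without THP1 etoposide replicate 3 (adjusted p = 0.071) and without U937 control replicate 1 (0.084). At the fork itself, TIPIN, the partner of TIMELESS in fork protection, and WDHD1, which ties polymerase alpha to the helicase, moved together: both fell in NALM6 (-0.67 and -0.78) and 697 (-1.01 and -1.16) and both rose in the other 4 lines, by 0.30 to 0.60 for TIPIN and 0.22 to 0.45 for WDHD1.

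**Figure D3:**
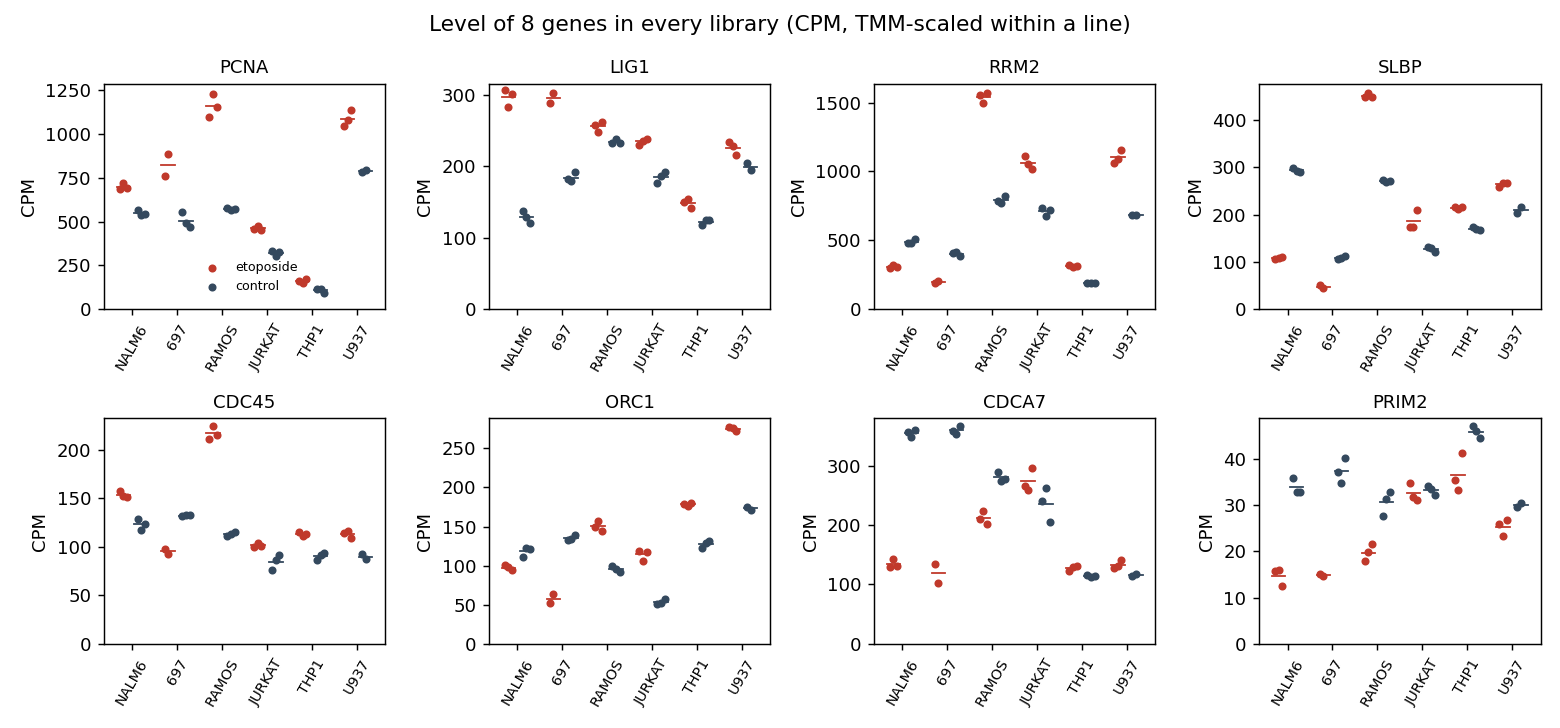
Level in CPM (vertical axes, each from 0) of PCNA, LIG1, RRM2, SLBP, CDC45, ORC1, CDCA7 and PRIM2 in every library, with etoposide left of control in each line and the group mean as a bar. RRM2 and SLBP lie below controls in NALM6 and 697 and above them in the other 4 lines, PCNA and LIG1 lie above controls throughout, and PRIM2 lies below controls in every line but JURKAT.

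For NALM6 the authors' deposited table of DESeq2 results gave another picture than the deposited counts. That table, the authors' deposited table, had 5 of the 39 genes higher and 16 lower at an adjusted p under 0.05, with a median log2 fold change of -0.33, and 23 of the 39 had the same call as in the fit of the counts. The authors' deposited table had PCNA at 0.19 (adjusted p = 0.382) and RRM2 at -0.58 (adjusted p = 0.0799) without a call. Signs were opposite for 4 genes: the authors' deposited table gave 0.15 for GINS3, 0.48 for ORC1, 0.43 for GMNN and -0.0012 for CDC45, none of them called. LIG1, POLE, GINS4, ORC6, SLBP and CDCA7 had the same call in both. For 697, RAMOS, JURKAT and U937 the authors' deposited tables gave the same call as the counts for 39 of 39 genes, and for THP1 for 38. The cause of the NALM6 difference was not tested.

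The difference between pre-B and other lines was tested directly, in 1 fit of all 34 libraries, as the mean effect in NALM6 and 697 minus the mean effect in RAMOS, JURKAT, THP1 and U937. Of the 39 genes, 35 were lower, 3 higher and 1 did not pass, where 28.1% of all 17008 genes tested were lower and 30.7% higher. The median difference was -1.02 for the 39 genes and 0.16 for all genes. SLBP (-1.81, SE 0.053, adjusted p = 5.83e-41), GINS3 (-1.62, SE 0.063, adjusted p = 7.39e-34) and RRM2 (-1.61, SE 0.046, adjusted p = 2.83e-41) differed most towards lower values in pre-B cells. LIG1 (0.69, SE 0.048, adjusted p = 9.88e-21), POLE (0.63, SE 0.046, adjusted p = 9.82e-20) and TYMS (0.32, SE 0.054, adjusted p = 3.12e-07) were the 3 that differed towards higher values. Since pool and treatment cannot be told apart in NALM6 and 697, the same holds for this difference.

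The pair of pre-B lines also differed from each other, again in most of the set. The effect in NALM6 minus that in 697 was higher for 27 genes, lower for 3 and not passing for 9, where 15.1% of all genes were higher and 16.1% lower. ORC6 (1.14, SE 0.097, adjusted p = 1.51e-15), GINS3 (0.98, SE 0.10, adjusted p = 4.44e-12) and ORC1 (0.95, SE 0.092, adjusted p = 1.57e-13) differed most. ORC6 was called higher in NALM6 (0.40) and lower in 697 (-0.74), while GINS3 and ORC1 fell in both lines and further in 697. PCNA (-0.35, SE 0.088, adjusted p = 0.00116), RFC5 (-0.29, SE 0.084, adjusted p = 0.00458) and SLBP (-0.26, SE 0.087, adjusted p = 0.0166) went the other way. Without 697 etoposide replicate 1 the SLBP difference was -0.12 (adjusted p = 0.449).

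Between the myeloid lines few genes of the set passed this test, as was so over all genes. A difference that did not pass does not show that the effects were equal. THP1 minus U937 was higher for 1 gene, lower for 2 and not passing for 36, against 5.96% and 7.07% of all genes, with POLD1 at 0.43 (SE 0.090, adjusted p = 0.000406), RFC5 at -0.35 (SE 0.084, adjusted p = 0.00263) and GINS3 at -0.30 (SE 0.10, adjusted p = 0.0423). The count of lower genes was 0 without U937 control replicate 1 and 1 without U937 control replicate 2, etoposide replicate 2 or etoposide replicate 3. It was 4 without U937 etoposide replicate 1 (which also gave 2 higher), THP1 etoposide replicate 3, 697 etoposide replicate 2, JURKAT control replicate 2 or 3, or any 1 JURKAT etoposide replicate. The RFC5 call was lost without U937 control replicate 1 (adjusted p = 0.053), and the GINS3 call was lost when any 1 of 8 libraries was left out, namely control replicates 1 and 2 and etoposide replicates 1 and 3 of THP1 and control replicates 1 and 2 and etoposide replicates 2 and 3 of U937 (adjusted p between 0.07 and 0.206).

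RAMOS and JURKAT differed in more genes. RAMOS minus JURKAT was higher for 14 genes, lower for 11 and not passing for 14, against 16.9% and 18.9% of all genes. FEN1 (0.82, SE 0.068, adjusted p = 1.61e-16), CDC45 (0.68, SE 0.081, adjusted p = 1.34e-10) and TYMS (0.53, SE 0.084, adjusted p = 3.3e-07) were the furthest towards RAMOS. POLA1 (-0.82, SE 0.090, adjusted p = 7.4e-12), RFC3 (-0.67, SE 0.11, adjusted p = 1.49e-06) and PRIM2 (-0.64, SE 0.13, adjusted p = 4.21e-05) were the furthest towards JURKAT.

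The mean of THP1 and U937 minus the mean of RAMOS and JURKAT was higher for 5 genes, lower for 12 and not passing for 22, against 12.4% and 9.47% of all genes. DSCC1 (0.45, SE 0.072, adjusted p = 8.75e-07), RFC3 (0.35, SE 0.078, adjusted p = 0.000629) and RFC1 (0.31, SE 0.056, adjusted p = 1.06e-05), all of clamp loaders, were higher. TK1 (-0.61, SE 0.066, adjusted p = 2.69e-11), CHAF1A (-0.41, SE 0.055, adjusted p = 1.06e-08) and POLD3 (-0.35, SE 0.058, adjusted p = 1.38e-06) were lower.

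**Figure D4:**
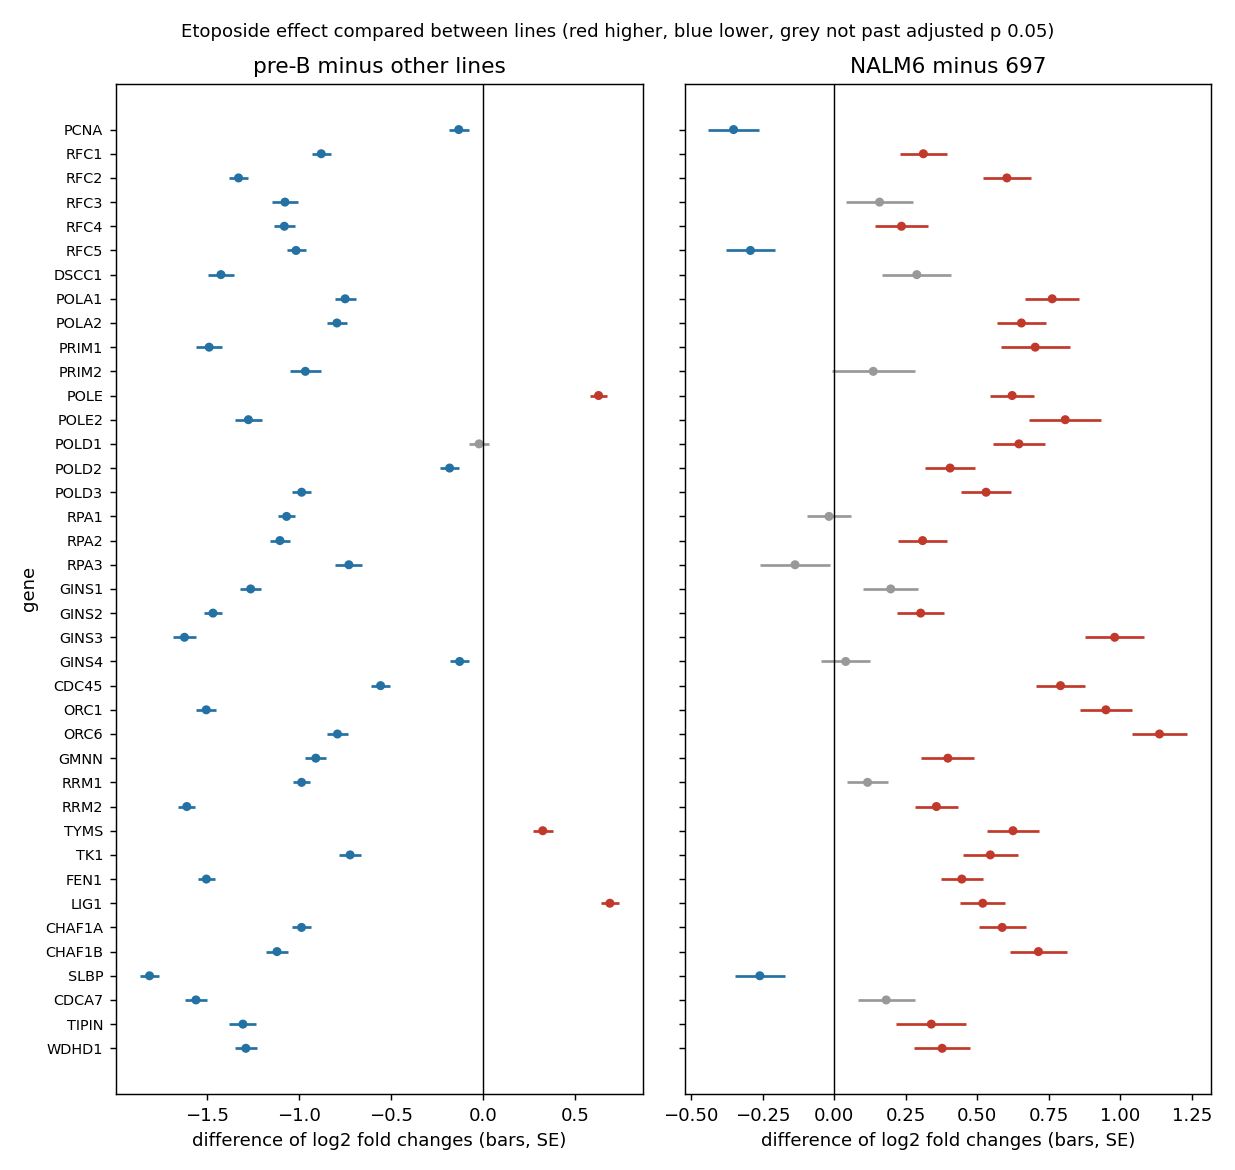
Difference of log2 fold changes with its SE (horizontal axis) for each of the 39 genes (rows) in comparisons of the etoposide effect between lines, with red for higher, blue for lower and grey where the adjusted p was not under 0.05. SLBP reaches -1.81 in pre-B minus other lines, where LIG1, POLE and TYMS alone are red.

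Related genes outside the set were counted in the same fits. Of 24 fork accessory factors, 6 rose and 15 fell in NALM6 and 3 rose and 19 fell in 697, while 18 rose and 3 fell in RAMOS. JURKAT had 11 of the 24 higher, THP1 15 higher and 3 lower, and U937 13 higher and 4 lower, to be read against the shares of all genes given above. Their median log2 fold changes were -0.40 in NALM6, -0.56 in 697, 0.37 in RAMOS, 0.16 in JURKAT, 0.16 in THP1 and 0.17 in U937. CHTF18, the subunit that with DSCC1 makes the alternative clamp loader, averaged 192 CPM in treated NALM6 cells and 68.4 CPM in controls, and rose by 1.12 in 697. CLSPN, the claspin checkpoint adaptor of the fork, rose in RAMOS (1.26), JURKAT (0.60) and U937 (0.94).

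Of 14 genes of helicase loading and firing, 2 rose and 11 fell in NALM6 and 14 fell in 697. RAMOS had 10 higher and 4 lower, JURKAT 10 higher and 1 lower, THP1 8 higher and 3 lower, and U937 8 higher and 2 lower. Medians were -0.64 in NALM6, -0.82 in 697, 0.45 in RAMOS, 0.34 in JURKAT, 0.21 in THP1 and 0.17 in U937. CDC6, which loads the MCM ring, rose by 0.91 in RAMOS, 1.05 in JURKAT, 0.76 in THP1 and 1.09 in U937. DBF4, the activator of the CDC7 kinase, fell in NALM6 (-1.48), 697 (-1.38), JURKAT (-0.41), THP1 (-0.52) and U937 (-0.39). Of 15 other nucleotide supply genes, 3 rose and 10 fell in NALM6 and 2 rose and 8 fell in 697. RAMOS had 5 higher and 4 lower, JURKAT 3 higher and 1 lower of 14, THP1 3 higher and 2 lower, and U937 5 higher and 2 lower. Of all genes tested, 41.3% were higher and 40.3% lower in NALM6, 39.4% and 36.9% in 697, and 34.2% and 35.5% in RAMOS. The shares were 6.71% and 6.27% in JURKAT, 14% and 17% in THP1, and 22.1% each way in U937. The RAMOS counts of the nucleotide supply list were near the shares of all genes. Medians of that list lay between -0.40 in 697 and 0.11 in JURKAT. DCK, the deoxycytidine salvage kinase, fell by 2.03 in NALM6, 2.63 in 697 and 1.05 in RAMOS, and RRM2B, the p53-induced reductase subunit, rose by 1.10 in NALM6 and 2.09 in 697 and fell by 1.11 in RAMOS.

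The G2/M and p53 markers moved beside these results. All 15 G2/M genes fell in each of the 6 lines, with medians between -1.91 in 697 and -0.96 in U937, and PLK1, a mitotic kinase, was at -3.79 in NALM6, -2.92 in 697, -4.85 in RAMOS, -2.86 in JURKAT, -1.90 in THP1 and -2.18 in U937. The p53 markers set the pre-B lines apart: 10 of 10 rose in NALM6 and 697, with median log2 fold changes of 3.54 and 3.68. In RAMOS 3 of 9 rose and 4 fell, in JURKAT 5 of 10 rose, in THP1 5 rose and 1 fell, and in U937 4 of 9 rose and 1 fell. These counts and those of the G2/M genes are to be read against the shares of all genes given above. In RAMOS, where 34.2% of all genes were higher and 35.5% lower, the p53 counts were near them. Medians of the p53 markers were 0.12 in RAMOS, 0.47 in JURKAT, 0.30 in THP1 and 0.26 in U937. CDKN1A, the cyclin-dependent kinase inhibitor p21, averaged 6689 ± 206 CPM in treated NALM6 cells and 166 ± 2.91 CPM in controls (SD, n = 3 each). In RAMOS it averaged 6.99 ± 0.634 CPM after etoposide and 1.51 ± 0.289 CPM in controls (SD, n = 3 each). The part of these changes in the values of the 39 genes was not tested.

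Gene span varied widely within the set, between 4.61 kb for FEN1 and 332 kb for PRIM2 in the GENCODE v29 annotation. The 12 genes of at least 50 kb had lower median log2 fold changes than the 27 shorter ones in every line: -0.63 and -0.43 in NALM6, -1.02 and -0.85 in 697, 0.18 and 0.60 in RAMOS, 0.31 and 0.35 in JURKAT, 0.15 and 0.40 in THP1, and 0.25 and 0.34 in U937, with the long genes given first. Spearman's rho between span and log2 fold change over the 39 genes was -0.46 in RAMOS and -0.48 in THP1, beside -0.26 and -0.33 over all genes with an annotated span. In NALM6 it was -0.17 and in 697 -0.21, beside -0.18 and -0.21 over all genes, so the set was close to all genes there. In JURKAT it was -0.24 and in U937 -0.30, beside -0.04 and -0.09. For transcript GC content rho over the 39 genes was 0.56 in NALM6, 0.48 in 697, 0.47 in RAMOS, 0.09 in JURKAT, 0.24 in THP1 and -0.14 in U937. Over all genes with annotated values it was 0.36, 0.26, 0.02, -0.10, 0.18 and -0.32 in the same order of lines. These are correlations across genes, which share libraries and are not independent replicates. In RAMOS 7 of the 12 long genes rose and 4 fell: PRIM2, POLA1 (303 kb), RFC3 (149 kb) and RFC1 (78.9 kb) fell, and POLD3 (175 kb) and GINS3 (111 kb) were among those that rose. SLBP (19.8 kb) and PRIM1 (20.8 kb), which fell furthest in NALM6 and 697, were short.

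**Figure D5:**
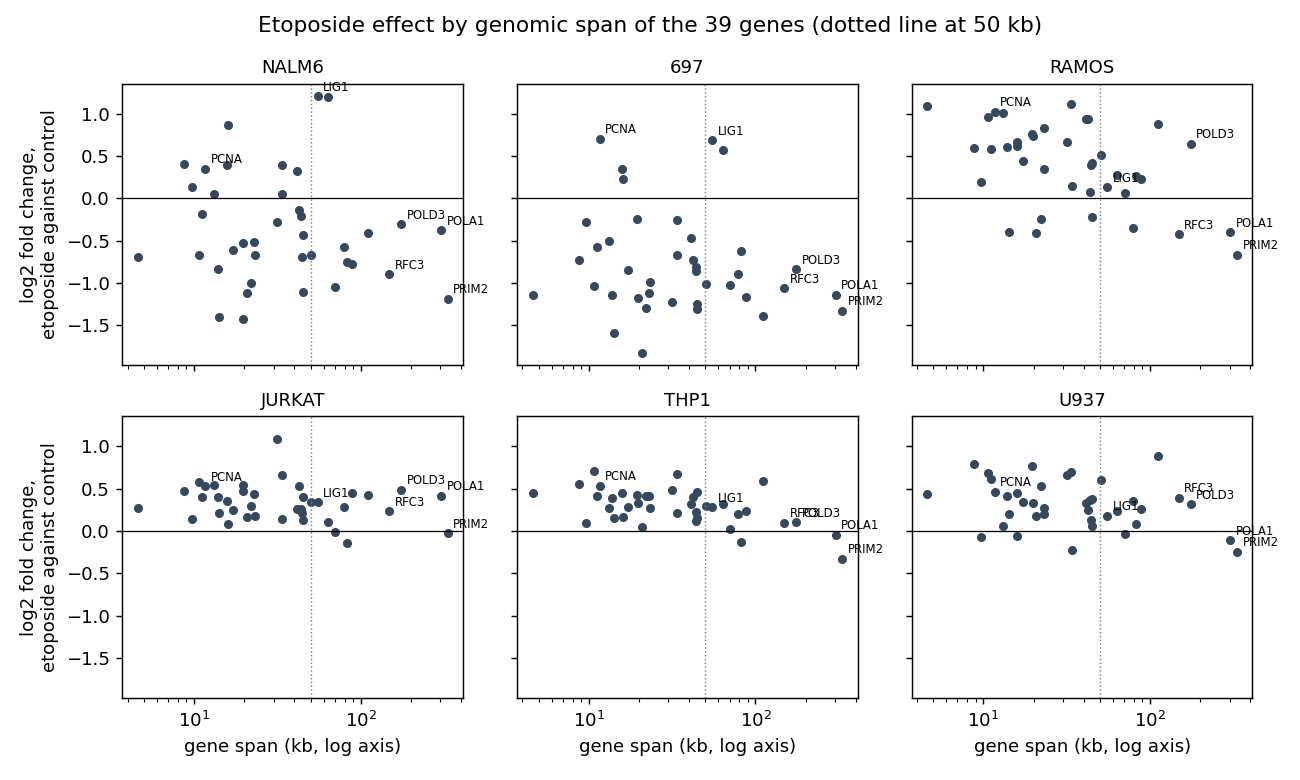
Log2 fold change of etoposide against control (vertical axis) by genomic span in kb (horizontal log axis) for the 39 genes, with 1 panel per line and a dotted line at 50 kb. The 12 genes at the right of the line have lower medians than the 27 at the left in each panel, with 0.18 against 0.60 in RAMOS.

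Untreated levels also differed between lines. Per kb of transcript and on a scaling shared by all 34 libraries, PCNA had the highest level of the set in controls of 5 lines, with 613 CPM per kb in U937, 432 in RAMOS, 417 in 697, 410 in NALM6 and 193 in JURKAT. In THP1 TK1 stood first, at 105 CPM per kb, and PCNA had 82.7. PRIM2, POLA1 and CHAF1B were at the low end, with one or another of them lowest in each line at 9.34 to 18.2 CPM per kb. Between lines, PCNA varied most, by 7.41-fold between U937 (833 CPM) and THP1 (112 CPM) controls. RPA3 varied least, by 1.48-fold between JURKAT (59.7 CPM) and THP1 (40.4 CPM) controls, and the median ratio over the 39 genes was 2.22. THP1 controls had the lowest level of the 6 lines for RRM2, TYMS, GINS2, GMNN and LIG1 as well.

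Some values carry uncertainty from shared sequence. In GENCODE v29, exons of 13 of the 39 genes overlap exons of a gene on the opposite strand, as TYMS does with ENOSF1, PRIM1 with HSD17B6 and RPA1 with SMYD4. Whether the authors' counting used strand is not given in the sources used here, so reads of such partners may have been left out or shared. Processed copies are annotated for 8 genes, namely PCNA, RFC3, RFC5, POLD2, RPA2, RRM2, TYMS and FEN1, and reads could be split with them.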

How the data were processed

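Total RNA in 34 libraries of 6 human blood cancer lines was sequenced with a TruSeq kit, per the labels' protocols. The deposited files hold whole-number counts per gene symbol, made by the authors with HISAT and HTSeq on build hg19, per the submitters' processing notes (versions and strand setting not given). The authors' deposited tables also hold log2 fold changes and adjusted p-values from DESeq2, which are printed only where named.

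Samples were grouped by line and treatment from the labels. Counts were tested in R 4.3.3 with edgeR 4.0.16 (filterByExpr with a minimum count of 10, TMM scaling, robust quasi-likelihood F test), with 1 fit per line and Benjamini-Hochberg adjustment over all genes tested. Differences between lines came from 1 fit of all 34 libraries with a coefficient per group. CPM were counts scaled to a TMM-scaled library total of 1 M within a line. The number of libraries and their totals, 8.18 to 37.1 M, limit the precision, and the fits were tested on simulated data. No 2 replicates agreed within sampling noise.

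The 39 genes, their roles and the other lists were chosen with earlier results of these data known. Values per library were given for PCNA, RRM2, TYMS, TK1, CDC45, SLBP, GMNN, ORC1, POLA1 and CDCA7 where the text turns on them, and for the 3 called genes with the highest and the 3 with the lowest log2 fold change in a line. DSCC1 and FEN1 in 697 and RPA1 and GINS4 in NALM6 were given besides, chosen after their values were seen. Each difference between lines names its 3 largest called genes in each direction, and each other list up to 2. Scaling (RLE, upper quartile, library totals), filtering, DESeq2 1.42.0, a 1.5-fold call, a replicate block and leaving out each library were the alternatives.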

Additional observations from a re-analysis of the deposited data

Results flagged for a closer look

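The etoposide effect differed between lines for many genes of the set, by a test of the difference itself in edgeR. The 27 values given here, as differences of log2 fold changes with an adjusted p under 0.05, are only the largest of these, up to 3 in each direction for each comparison. For pre-B minus other lines they were 0.69 for LIG1, 0.63 for POLE, 0.32 for TYMS, -1.81 for SLBP, -1.62 for GINS3 and -1.61 for RRM2. In NALM6 and 697 the pool, as read from the file names, and treatment cannot be told apart, so the part of the pool in these values was not tested. For NALM6 minus 697 they were 1.14 for ORC6, 0.98 for GINS3, 0.95 for ORC1, -0.35 for PCNA, -0.29 for RFC5 and -0.26 for SLBP. For THP1 minus U937 they were 0.43 for POLD1, -0.35 for RFC5 and -0.30 for GINS3. For RAMOS minus JURKAT they were 0.82 for FEN1, 0.68 for CDC45, 0.53 for TYMS, -0.82 for POLA1, -0.67 for RFC3 and -0.64 for PRIM2. For the myeloid lines minus RAMOS and JURKAT they were 0.45 for DSCC1, 0.35 for RFC3, 0.31 for RFC1, -0.61 for TK1, -0.41 for CHAF1A and -0.35 for POLD3. Groups of 2 or 3 libraries are too small for a test of single outlying libraries, so none was made.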

How the results depend on the processing

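Counts of called genes were within 1.5 times of those reported under RLE and upper-quartile scaling, no filter, DESeq2 and the fit of all 34 libraries in each line. The exceptions among differences between lines were THP1 minus U937, with 1 lower gene under RLE and 2 higher under DESeq2. Upper-quartile scaling moved the median of all genes by 0.16 in NALM6 and 0.17 in 697 (library totals by 0.15 in NALM6), and the medians of the 39 genes became -0.35 and -0.73, with 0.50 in RAMOS, 0.32 in THP1 and 0.36 in U937. CHAF1A in NALM6 then turned to 0.0213. With library totals, an alternative chosen after seeing the data, the medians were -0.37 in NALM6, -0.80 in 697, 0.35 in THP1 and 0.39 in U937, CHAF1A in NALM6 was 0.0024, and the counts moved to 1 lower in U937, 4 lower in THP1 minus U937 and 9 higher in myeloid minus RAMOS and JURKAT. Without a filter the medians were -0.56 in NALM6 and -0.93 in 697, and in 697 RLE and DESeq2 each gave -0.88 and the fit of all 34 libraries -0.91. The cause was not tested.

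Asking for at least 1.5-fold as well left 3 higher and 17 lower genes in NALM6, 2 and 28 in 697, and 18 and 1 in RAMOS. JURKAT kept 2 higher and 0 lower, THP1 3 and 0, and U937 8 and 0. Pre-B minus other lines kept 2 higher and 31 lower, NALM6 minus 697 14 and 0, and THP1 minus U937 0 and 0. RAMOS minus JURKAT kept 2 and 6, and myeloid minus RAMOS and JURKAT 0 and 1. These counts follow from the stricter call. The share of all genes at that call was not counted, so they cannot be set against it.

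Leaving out 1 library at a time gave 8 to 9 higher and 27 to 28 lower genes in NALM6, 4 to 5 and 34 to 34 in 697, 28 to 30 and 8 to 8 in RAMOS, 23 to 29 and 0 to 0 in JURKAT, 28 to 32 and 1 to 2 in THP1, and 27 to 30 and 1 to 3 in U937. Medians ran between -0.54 and -0.51 in NALM6, -0.93 and -0.88 in 697, 0.41 and 0.48 in RAMOS, 0.32 and 0.34 in JURKAT, 0.28 and 0.30 in THP1, and 0.30 and 0.34 in U937. The differences gave 3 to 3 higher and 33 to 35 lower for pre-B minus other lines, 25 to 29 and 2 to 3 for NALM6 minus 697, 1 to 2 and 0 to 4 for THP1 minus U937, 14 to 19 and 9 to 12 for RAMOS minus JURKAT, and 4 to 6 and 11 to 14 for the myeloid difference. A group left with 1 library was assumed to vary like the others.

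Same-numbered libraries did not deviate together, with correlations between -0.12 and 0.06, and the main fits used no pairing. For 697 the file names number the etoposide libraries 2 and 3, where the titles used here number them 1 and 2. Which 697 libraries share a number is therefore uncertain, in these correlations and in the replicate block. Deviations from the mean of 2 or 3 libraries are tied to each other, so these correlations cannot exclude a pairing by number. With the replicate block, U937 had 30 higher and 3 lower genes and THP1 minus U937 had 1 lower, and no other count moved by over 1.5 times. Groups of 2 or 3 libraries and pools that coincide with treatment in the pre-B lines limit every value above.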
